A study of Rattus norvegicus with 6 samples.

Results

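Interferon-stimulated genes are the genes that a cell switches on when an interferon binds its receptor, and 40 of them, named by symbol, were followed here in the rat ileum after bypass surgery. A gene was taken where a row of the array table carried its symbol and no other, and 36 of the 40 had such a row, each of them exactly 1, among 14506 genes tested in all. Samhd1, Xaf1, Gbp4 and Parp14 were not analysed here. The bypassed group is 3 Zucker fa/fa rats that had a duodenum-jejunum bypass (DJB), in which food leaves the upper duodenum straight into the lower jejunum while bile and pancreatic juice join further down. The sham group is 3 Zucker fa/fa rats whose bowel was cut and rejoined in its normal course. All 6 rats carry the fa/fa genotype, a defect of the leptin receptor that makes them obese, so that lean rats are not part of the comparison, and no label states their sex. Surgery was done at 20 weeks of age, ileum was frozen 14 days later, and the RNA of each rat went onto 1 Affymetrix whole-transcript array. Levels are log2 expression values after RMA normalisation, a difference is DJB minus sham on that log2 scale with its standard error (SE) from limma, and a gene rose or fell only where its limma p, adjusted over all genes tested by Benjamini-Hochberg, was under 0.05.

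Interferons of type I and type III act through factors that include STAT2 and IRF9 and bind the interferon-stimulated response element in the promoters of antiviral genes such as those of the OAS, IFIT and Mx families. Interferon gamma, the type II interferon made mostly by T cells and NK cells, acts at the gamma-activated site, and through IRF1. It is the main inducer of the GBP and IRG families of GTPases, which take part in the defence against microbes held in vacuoles. In the gut, epithelial cells, macrophages, dendritic cells and lymphocytes all carry these genes, and the resident microbes keep a low basal level of them.

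The 6 arrays had median levels of 6.19, 6.08 and 6.10 on DJB 1 to 3 and 6.09, 6.11 and 6.09 on sham 1 to 3, and DJB 1 was the highest of the 3 DJB arrays in 57.6% of all genes tested, a share that bears on the results below. Across 29214 rows, which are not independent replicates, pairs of arrays of the same group correlated at 0.990 to 0.993, and pairs of different groups at 0.987 to 0.990. The label of the tissue was checked on 8 genes of the enterocyte and the ileal epithelium, all of them above the median of all rows on average, with mean levels from 10.1 to 13.72. Precision is limited by the 3 arrays in each group.

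Promoter sequences were searched for motifs of the interferon response, which were chosen with earlier results of these data known. The sequences come from RefSeq for the build GRCr8, where 27 of the 36 genes had an entry. Each covers 250 bases before and 50 after the transcription start. The core of the interferon-stimulated response element was searched as GAAA, any 2 bases and GAAA, and the gamma-activated site as TTCNNNGAA, on both strands. The first was found in 17 of the 27 promoters (63.0%), against 3.92% of 33465 promoters in all. The second was found in 9 of the 27 (33.3%), against 8.87% of all promoters, and a site of one kind can overlap a site of the other or of its own kind. A match describes the letters and does not show that a factor binds there. The promoters of Ifi27, Dtx3l and Ifit3 are printed because these were the 3 genes of lowest limma p among those holding the first motif, and capitals mark its letters. They lie at chr6:128355062-128355311 (plus strand), chr11:78319995-78320244 (plus strand) and chr1:241527076-241527325 (plus strand). The stretches of Ifi27 and Ifit3 end just before the start, and that of Dtx3l ends 20 bases after it. Ifi27 held the motif at 2 places.
Ifi27: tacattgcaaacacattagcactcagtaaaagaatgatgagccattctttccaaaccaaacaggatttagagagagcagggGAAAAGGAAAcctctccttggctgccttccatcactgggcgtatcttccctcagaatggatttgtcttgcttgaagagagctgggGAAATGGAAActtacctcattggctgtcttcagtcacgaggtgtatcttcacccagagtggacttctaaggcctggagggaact
Dtx3l: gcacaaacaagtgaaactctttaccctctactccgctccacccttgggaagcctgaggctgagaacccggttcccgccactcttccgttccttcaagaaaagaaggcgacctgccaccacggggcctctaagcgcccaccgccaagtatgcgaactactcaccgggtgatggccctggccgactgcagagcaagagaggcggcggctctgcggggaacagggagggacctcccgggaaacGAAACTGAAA
Ifit3: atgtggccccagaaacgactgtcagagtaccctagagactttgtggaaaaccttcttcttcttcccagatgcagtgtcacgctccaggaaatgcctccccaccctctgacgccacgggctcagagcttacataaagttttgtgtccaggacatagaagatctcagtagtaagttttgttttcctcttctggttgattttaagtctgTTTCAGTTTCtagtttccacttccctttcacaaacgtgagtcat

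After DJB, no interferon-stimulated gene passed the adjusted threshold. The count was 0 of 36 by limma, where 0.772% of all genes passed, and the lowest adjusted p among the 36 was 0.124. In bulk tissue, more or fewer cells of a type and more or less RNA in each cell cannot be told apart. At an unadjusted p under 0.05, 5 of the 36 were higher after DJB, where 9.82% of all genes were, and 1 was lower, where 4.45% of all genes were. These 6 were Ifi27, Dtx3l, Ifi47, Irf8 and Irf1 on the higher side and Ifit3 on the lower side. By their means 26 genes were higher and 10 lower after DJB, where 61.7% of all genes were higher, and 25 were higher after each array was centred on its own median, where the share of all genes was 54.7%. The median difference over the 36 was 0.13, against 0.05 over all genes tested. Without DJB 1 the median over the 36 was 0.01, the same as over all genes tested at 0.01. It was 0.20 without DJB 2 and 0.18 without DJB 3, against 0.07 over all genes tested in each case. At an unadjusted p under 0.05 and without DJB 1, 3 of the 36 were higher (6.57% of all genes) and 9 lower (5.98% of all genes), the 9 being Dhx58, Ifit3, Irf7, Isg15, Mx1, Oas1a, Oas1b, Oas2 and Usp18. The counts were 9 higher (9.89% of all genes) and 0 lower (3.47% of all genes) without DJB 2. They were 6 higher (10.49% of all genes) and 0 lower (3.62% of all genes) without DJB 3. DJB 1 was the highest DJB array in 29 of the 36, and leaving it out lowers their DJB means. The 9 lower genes therefore do not by themselves show a fall. The DJB and sham values did not overlap in 5 of the 36, all of them higher after DJB, where 14.5% of all genes were apart in that direction, 6.56% in the other and 21.1% in either. A p that misses the threshold does not show that the groups were alike, and the plot of differences gives the interval of each.

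**Figure D1:**
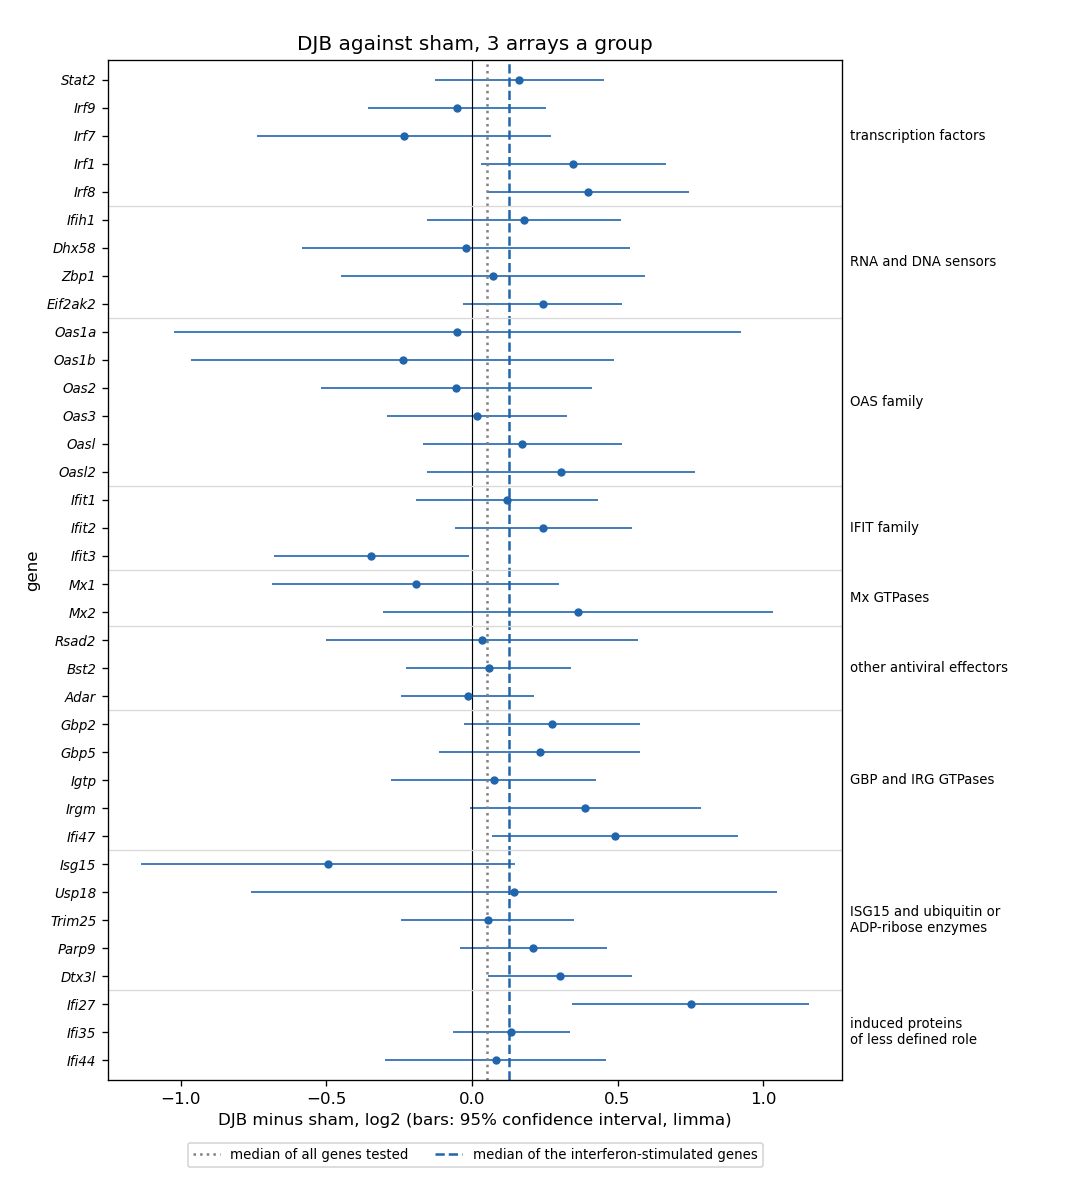
Difference between DJB and sham (log2, DJB minus sham) of the 36 interferon-stimulated genes, grouped by role. Points are differences from 3 arrays a group, bars are 95% confidence intervals from limma, and the vertical lines mark the median of the 36 genes (0.13) and of all genes tested (0.05). Ifi27 had the highest difference at 0.75 and Isg15 the lowest at -0.49.

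Ifi27, a small mitochondrial protein strongly induced by type I interferon, had the largest difference. Its levels were 10.78, 10.09 and 10.10 on the DJB arrays, against 9.65, 9.64 and 9.43 on the sham arrays. Every DJB rat lay above every sham rat, and DJB 1 stood highest. The difference was 0.75 ± 0.18 (SE, n = 3 a group), 1.68-fold, with a 95% interval from 0.34 to 1.16 and a limma adjusted p of 0.124. The adjusted p was 0.0457 when limma's variance was fitted with an intensity trend, and over all alternatives it ran from 0.0457 to 0.320. Without DJB 1 the difference was 0.52. In the other 2 genes of less defined role, the groups were apart for Ifi35, a partner of the protein NMI, at 7.64, 7.61 and 7.61 after DJB, against 7.42, 7.49 and 7.54 after sham, a difference of 0.14 ± 0.09 (SE). Ifi44, a cytoplasmic protein of the antiviral response, stood at 6.47, 5.82 and 5.83 after DJB, against 5.99, 5.92 and 5.97 after sham, so that DJB 1 lay above all other arrays and the other DJB arrays below all sham arrays.

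The most visible feature of the interferon-stimulated genes was their spread within the DJB group. Their median SD was 0.31 over the 3 DJB arrays and 0.13 over the 3 sham arrays, where over all genes tested the medians were 0.13 within DJB and 0.12 within sham. The SD was larger within DJB than within sham in 34 of the 36, the exceptions being Ifit1 and Ifi35, where the same held for 56.7% of all genes. After each array was centred on its median, the count was 32 of 36 and the share of all genes 51.2%. An SD of at least 0.5 within DJB was reached by 6 of the 36 (1.27% of all genes), namely Usp18, Oas1a, Oas1b, Isg15, Mx2 and Dhx58, and within sham by 1 of the 36 (0.62% of all genes), Oas1a. Without DJB 1 the median SD within DJB was 0.16, against 0.09 over all genes tested. It was 0.32 without DJB 2 and 0.30 without DJB 3, against 0.12 and 0.11 over all genes tested. A wide spread was not particular to the 36. The median SD within DJB was 0.52 for B cell markers, 0.39 for T cell markers and 0.36 for cytotoxic and NK cell markers. Within sham these were 0.55, 0.18 and 0.28. Within DJB it was lower for endothelial (0.25), plasma cell (0.18), macrophage and monocyte (0.16), dendritic cell (0.08) and epithelial (0.08) markers. For 30 further interferon-stimulated genes it was 0.20. With 3 arrays a group the spread was described and not tested.

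**Figure D2:**
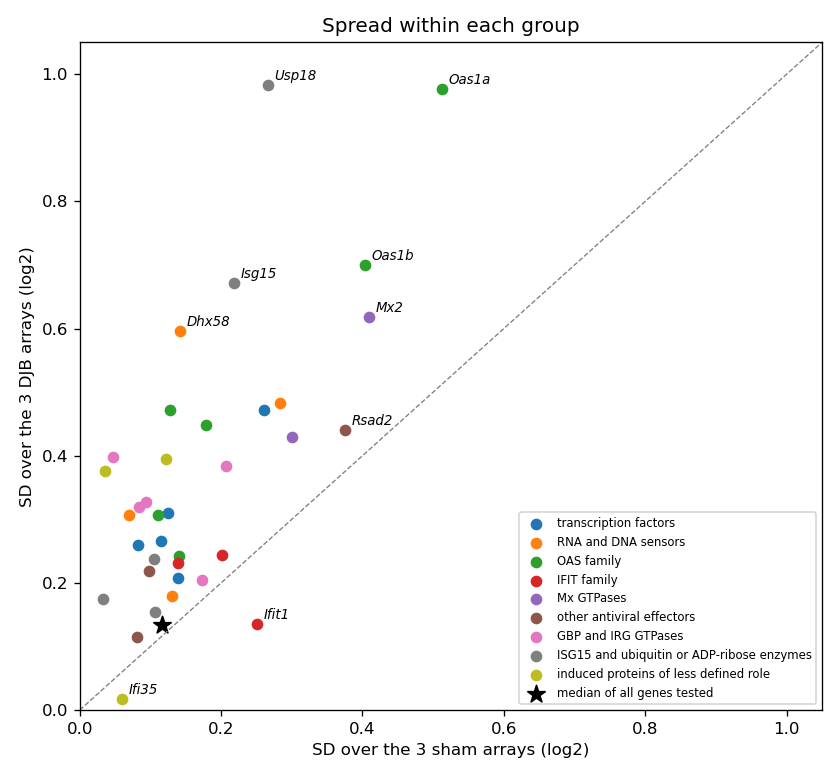
SD of the log2 level over the 3 DJB arrays against the SD over the 3 sham arrays, 1 point for each of the 36 genes, coloured by role, with a star at the median of all genes tested (0.13 within DJB, 0.12 within sham). Of the 36 points, 34 lie above the dashed line of equal spread, and Usp18 and Oas1a have an SD of 0.98 within DJB.

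Within DJB the 36 genes divided by role on the deposited values, a division that was less complete after renormalisation. DJB 1 was the highest of the 3 DJB arrays in 29 of the 36, where this held for 57.6% of all genes. DJB 3 was the highest in the other 7, where this held for 23.2% of all genes, and DJB 2 in 0, where this held for 19.2%. The lowest DJB array was DJB 2 in 23 of the 36 (41.1% of all genes), DJB 3 in 13 (43.5% of all genes) and DJB 1 in 0 (15.4% of all genes). The 7 genes highest on DJB 3 were all 5 measured GBP and IRG GTPases with Irf1 and Irf8. The 29 genes highest on DJB 1 were all measured OAS, IFIT and Mx genes, all sensors, all enzymes of ISG15, ubiquitin and ADP-ribose, all effectors and genes of less defined role, and Stat2, Irf9 and Irf7. DJB 1 stood at least 0.5 above the next DJB array in 12 of the 36, where 2.1% of all genes did, a distance chosen after the values were seen. After centring each array on its median, DJB 1 was highest in 26 of the 36 (35.9% of all genes) and at least 0.5 above the next in 11 (1% of all genes). After a repeated quantile normalisation these counts were 26 (37.4% of all genes) and 11 (0.944% of all genes), 25 genes were higher after DJB by mean (53.1% of all genes), and 33 had the larger SD within DJB (52.5% of all genes). Under either treatment DJB 3 was the highest DJB array in 8 of the 36, and DJB 2 in the rest. Some of the 29 genes were then no longer highest on DJB 1, so the split by role was not complete. On the deposited values the lead of DJB 1 was already small in some of the 29, such as Zbp1 and Ifi35. DJB 3 stood at least 0.5 above the next DJB array in 0 of the 36, where 0.476% of all genes did, and DJB 2 in 0, where 0.193% did. Of all 6 arrays, DJB 1 was the highest in 27 of the 36, where 38.5% of all genes had it highest. DJB 3 was the highest of all 6 in the same 7 genes in which it was the highest DJB array, where 14.4% of all genes had it highest, and DJB 2 in 0, where 10.1% had. These arrays were set apart after their values were seen, so these counts describe 3 rats and carry no test.

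**Figure D3:**
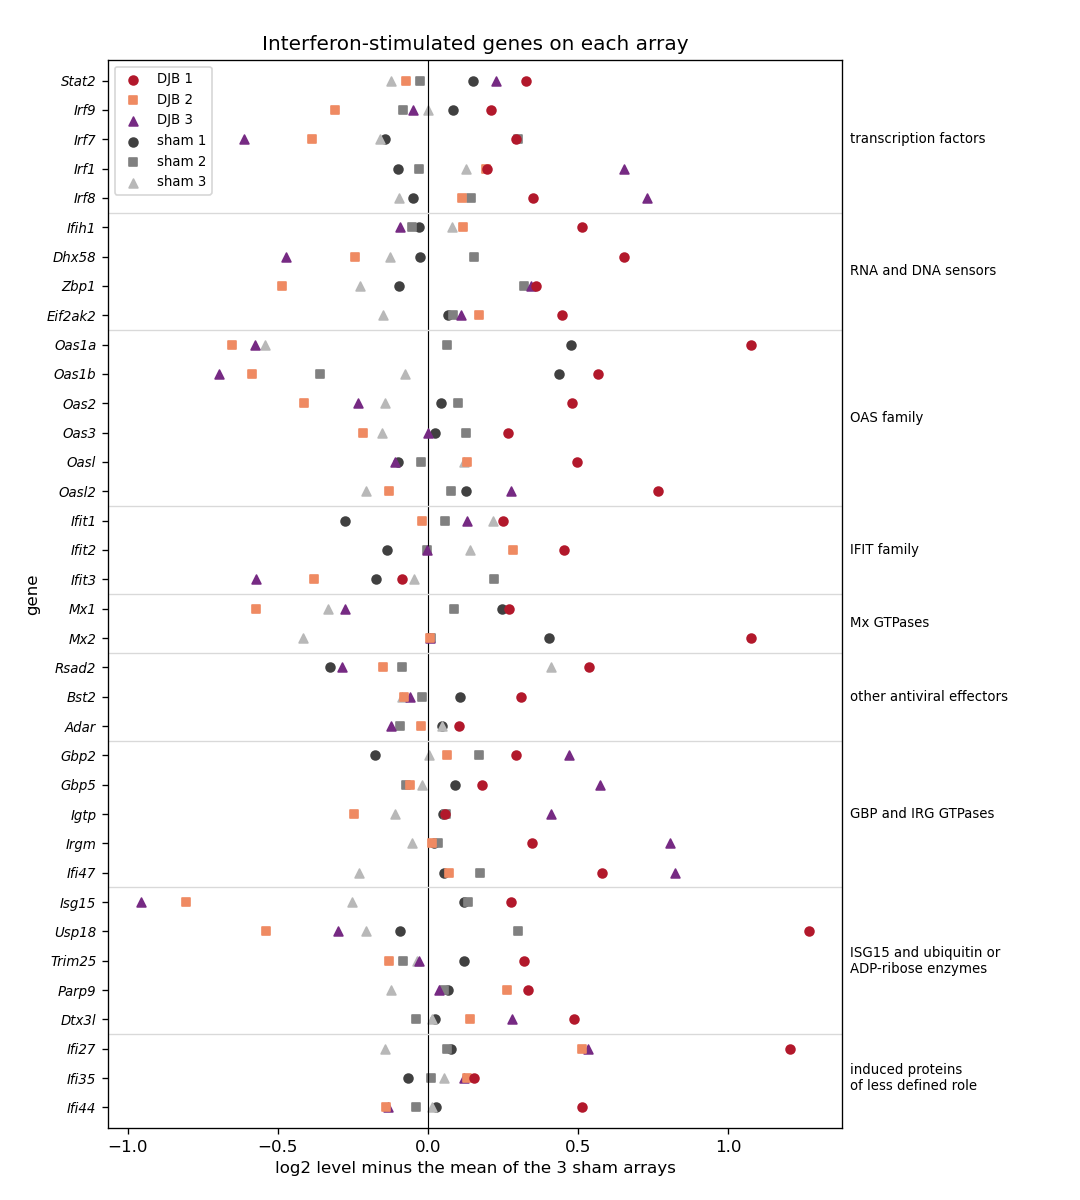
Level of each of the 36 genes on each array, as log2 level minus the mean of the 3 sham arrays, grouped by role. Coloured symbols are the 3 DJB rats and grey symbols the 3 sham rats. DJB 1 lies to the right of the other DJB rats in 29 genes, and DJB 3 in the 5 GBP and IRG GTPases with Irf1 and Irf8.

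The OAS family makes or resembles the enzymes that answer double-stranded RNA with oligoadenylates and so activate the RNA-cutting enzyme RNase L. None of its 6 genes passed, and DJB 1 was the highest of all 6 arrays in each. Oas1a stood at 8.77, 7.04 and 7.12 on the DJB arrays, against 8.17, 7.76 and 7.15 on the sham arrays. DJB 1 exceeded the next DJB array by 1.65, the other DJB arrays lay just below the lowest sham array, and the sham arrays themselves had an SD of 0.51. Its difference was -0.05 ± 0.43 (SE), with an interval from -1.02 to 0.92. Oas1b, which also lies under the median of all rows (6.11), had the same shape at 5.85, 4.70 and 4.59 after DJB, against 5.72, 4.92 and 5.21 after sham. Oas2 stood at 5.80, 4.91 and 5.09 after DJB, against 5.37, 5.42 and 5.18 after sham. Oasl2, at 7.86, 6.96 and 7.37 after DJB and 7.22, 7.17 and 6.88 after sham, had the largest difference of the family at 0.31 ± 0.20 (SE). Oasl differed by 0.17 ± 0.15 (SE). Oas3 differed by 0.02 ± 0.14 (SE), and its sign turned after median centring and after a repeated quantile normalisation. Members of this family are close copies of one another, and how far their probes share signal cannot be told from the deposited values.

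Oas1a and Oas1b carried nearly the same site. In both, 2 overlapping copies of the response element core stood shortly before the start, shown in capitals in stretches of 30 bases chosen because these 2 genes had the widest spread of the family. The stretch of Oas1a is at chr12:41330419-41330448 (plus strand) and that of Oas1b at chr12:41395888-41395917 (minus strand).
Oas1a: tctcggGAAATGGAAACTGAAAatcttgtt
Oas1b: tcccggGAAATGGAAACTGAAAaccctatt

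Isg15 encodes the ubiquitin-like protein that is joined to other proteins in the antiviral response, and Usp18 the protease that removes it and also restrains the type I receptor. Isg15 stood at 9.23, 8.14 and 7.995 after DJB, against 9.07, 9.08 and 8.70 after sham. DJB 1 was the highest array, and DJB 2 and DJB 3 were lower than every sham array. The difference was -0.49 ± 0.28 (SE, interval -1.14 to 0.15, limma adjusted p = 0.466). Without DJB 1 it was -0.88, with a limma adjusted p of 0.0424, and over all alternatives the adjusted p ran from 0.0424 to 0.709. Leaving out the highest DJB array lowers both the DJB mean and the DJB spread, so that p does not by itself show a fall. Without DJB 2 and without DJB 3 the difference was -0.34 and -0.26, with limma adjusted p of 0.683 and 0.709. Usp18, on average under the median of all rows (6.11), stood at 7.12, 5.31 and 5.55 after DJB, against 5.76, 6.15 and 5.64 after sham. DJB 1 exceeded the next DJB array by 1.57 in Usp18. Its difference of 0.14 ± 0.40 (SE) was -0.42 without DJB 1.

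The other enzymes of this group spread less within DJB. Trim25, a ubiquitin ligase that activates the sensor RIG-I, differed by 0.05 ± 0.13 (SE). Parp9 and Dtx3l encode partners of one complex of ADP-ribosylation and ubiquitination, and they are neighbours whose annotated spans overlap in GRCr8. Dtx3l stood at 7.23, 6.89 and 7.03 after DJB, against 6.77, 6.71 and 6.76 after sham. All DJB values lay above all sham values, and the sham SD was 0.03. The difference was 0.30 ± 0.11 (SE, limma adjusted p = 0.259). Parp9, at 8.51, 8.44 and 8.21 after DJB and 8.24, 8.23 and 8.05 after sham, differed by 0.21 ± 0.11 (SE).

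Among the sensors of foreign nucleic acid, Dhx58 encodes the helicase LGP2, a modulator of RNA sensing. It stood at 7.55, 6.65 and 6.42 after DJB, against 6.86, 7.05 and 6.77 after sham, with DJB 1 above and the other DJB arrays below the whole sham group. Ifih1, the sensor MDA5 of long double-stranded RNA, stood at 8.77, 8.38 and 8.17 after DJB, against 8.23, 8.21 and 8.34 after sham, a difference of 0.18 ± 0.15 (SE). Eif2ak2, the RNA-activated kinase PKR that halts translation, stood at 8.89, 8.62 and 8.55 after DJB, against 8.51, 8.53 and 8.29 after sham. Its groups were apart, and its difference was 0.24 ± 0.12 (SE, limma adjusted p = 0.405). Zbp1, a sensor of Z-form nucleic acid, was high on DJB 1 and DJB 3 at 8.07 and 8.05 and low on DJB 2 at 7.22, against 7.61, 8.03 and 7.48 after sham.

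The Mx proteins are dynamin-like GTPases that trap viral components. Mx2 stood at 7.90, 6.83 and 6.83 after DJB, against 7.22, 6.83 and 6.41 after sham, a difference of 0.36 ± 0.30 (SE). Mx1, at 6.47, 5.63 and 5.93 after DJB and 6.45, 6.29 and 5.87 after sham, differed by -0.19 ± 0.22 (SE). In both, DJB 1 was the highest array, in Mx1 closely followed by sham 1. The IFIT proteins bind foreign RNA and hold back its translation, and their spread was narrower. Ifit1 stood at 10.12, 9.85 and 10.00 after DJB, against 9.59, 9.93 and 10.09 after sham, and its SD was larger in sham (0.13 within DJB, 0.25 within sham). Ifit3 was the one gene of the 36 lower after DJB at an unadjusted p under 0.05. It stood at 5.40, 5.11 and 4.92 after DJB, against 5.31, 5.71 and 5.44 after sham, a difference of -0.35 ± 0.15 (SE, limma adjusted p = 0.338) on a row under the median of all rows. Ifit2 differed by 0.25 ± 0.13 (SE), so that the 3 IFIT genes, which lie close together in GRCr8, did not share a direction.

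Of the other effectors, Rsad2 encodes viperin, which makes a chain terminator of viral RNA synthesis. It stood at 7.24, 6.55 and 6.42 after DJB, against 6.38, 6.61 and 7.11 after sham, so that 1 rat of each group was high. Bst2, the tetherin that holds budding viruses at the cell surface, differed by 0.06 ± 0.13 (SE), and Adar, which edits double-stranded RNA, by -0.01 ± 0.10 (SE). For Adar the interval from -0.24 to 0.21 was among the narrowest of the 36.

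The transcription factors went with both patterns. Stat2 and Irf9 encode factors of the type I response, and they differed by 0.16 ± 0.13 and -0.05 ± 0.14 (SE). Irf7, which drives the production of interferon alpha, stood at 8.74, 8.06 and 7.83 after DJB, against 8.30, 8.74 and 8.29 after sham, with DJB 2 and DJB 3 under the whole sham group. Irf1, the factor of the interferon gamma response, stood at 9.26, 9.26 and 9.72 after DJB, against 8.97, 9.04 and 9.19 after sham. Every DJB rat lay above every sham rat, and the difference was 0.35 ± 0.14 (SE, limma adjusted p = 0.309). Irf8, a factor of dendritic cells, macrophages and B cells that interferon gamma also induces, stood at 9.75, 9.52 and 10.13 after DJB, against 9.35, 9.54 and 9.31 after sham. Only DJB 2 lay within the sham range, and the difference was 0.40 ± 0.15 (SE, limma adjusted p = 0.291).

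The GBP and IRG GTPases shared the shape of Irf1 and Irf8, with DJB 3 highest and DJB 2 lowest among the DJB arrays in all 5. None of the 5 passed, and all 5 were higher after DJB by their means. Ifi47, an IRG GTPase, stood at 10.24, 9.73 and 10.48 after DJB, against 9.71, 9.83 and 9.43 after sham, a difference of 0.49 ± 0.19 (SE, limma adjusted p = 0.284). Irgm stood at 8.27, 7.94 and 8.73 after DJB, against 7.94, 7.96 and 7.87 after sham, a difference of 0.39 ± 0.18 (SE, limma adjusted p = 0.361). In both genes DJB 1 and DJB 3 lay above the whole sham group and DJB 2 within it. Gbp2 stood at 7.51, 7.28 and 7.69 after DJB, against 7.04, 7.39 and 7.22 after sham, and Gbp5 at 7.06, 6.82 and 7.45 after DJB, against 6.97, 6.80 and 6.86 after sham. Their differences were 0.28 ± 0.13 and 0.23 ± 0.15 (SE). Igtp stood at 6.69, 6.38 and 7.04 after DJB, against 6.68, 6.69 and 6.52 after sham, a difference of 0.07 ± 0.16 (SE) that was -0.09 without DJB 3. Members of the GBP and IRG families are related in sequence, so their rows are not independent readings.

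**Figure D4:**
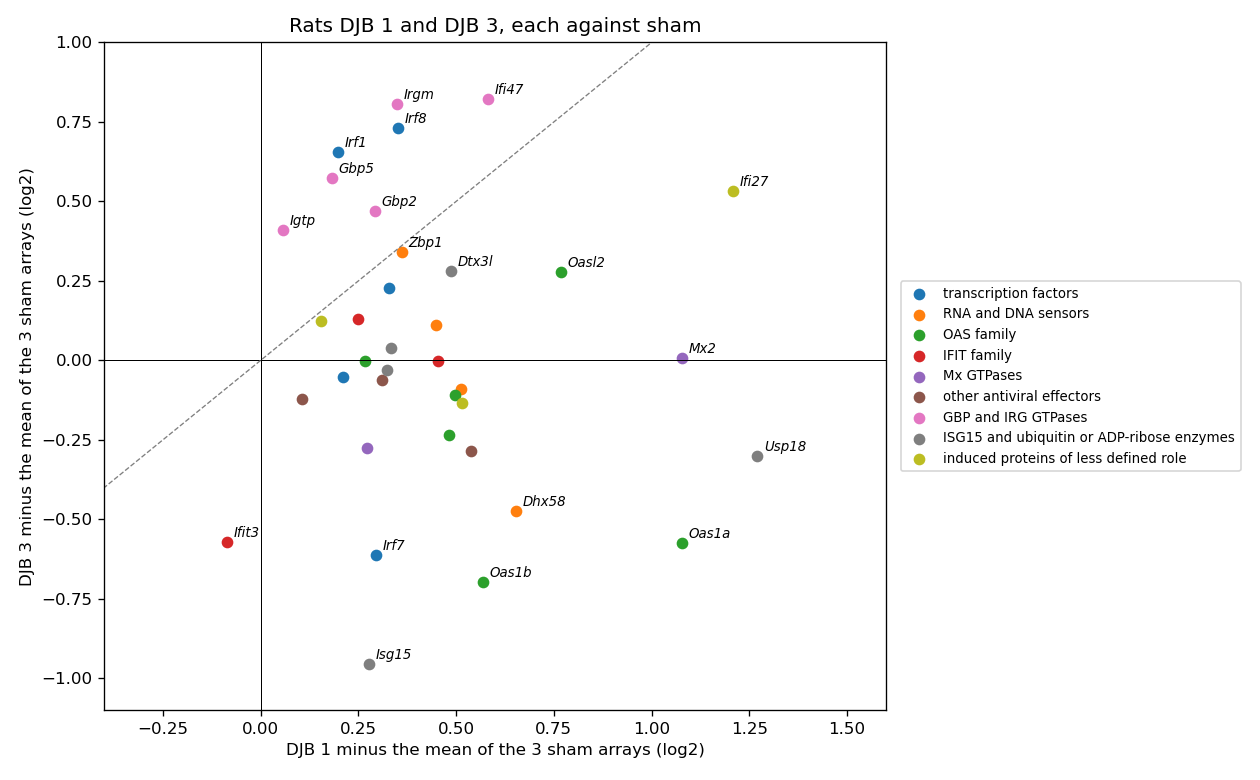
Log2 level on DJB 1 (horizontal) and on DJB 3 (vertical), each minus the mean of the 3 sham arrays, 1 point for each of the 36 genes, coloured by role, with a dashed line of equal values. The 7 points above the line are the GBP and IRG GTPases with Irf1 and Irf8, and Usp18, Oas1a and Isg15 lie far below it.

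The promoters of these 7 genes were all in the RefSeq table. TTCNNNGAA was found in 5 of the 7, and in 4 of the 20 promoters of genes highest on DJB 1. The response element core was found in 4 of the 7 and in 13 of the 20. A stretch of 30 bases that holds TTCNNNGAA is shown for each of the 5 genes, with both motifs in capitals, and the split by array was made after the values were seen. They lie at chr10:38417783-38417812 for Irf1, chr19:65699103-65699132 for Irf8, chr10:33798638-33798667 for Ifi47 and chr10:42874928-42874957 for Igtp, all on the plus strand, and at chr10:33742599-33742628 on the minus strand for Irgm. In Irgm and Igtp both motifs stand side by side in the same order.
Irf1: acagcctgatTTCCCCGAAatgatgaggcg
Irf8: tTTCTCGGAAaggcgagcgcTTCAGAGAAg
Ifi47: tgaaatcattTTCCTGGAAatgtttatgcc
Irgm: ttcgtTTCAAGGAAtaGAAACTGAAAccga
Igtp: gtcacTTCCAGGAAccGAAACTGAAAgcag

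The rest of the interferon pathway was read from 5 lists of 92 symbols, of which 59 had a row. None of the 59 passed the adjusted threshold, where 0.772% of all genes did. At an unadjusted p under 0.05, 11 were higher after DJB (9.82% of all genes) and 3 lower (4.45% of all genes), and their median difference was 0.06. Among the interferons, 5 of 10 symbols were measured, all under the median of all rows. Ifng, the gene of interferon gamma, stood at 4.32, 4.25 and 4.50 after DJB, against 3.87, 4.04 and 3.99 after sham. Every DJB rat lay above every sham rat, with a difference of 0.39 ± 0.10 (SE, limma adjusted p = 0.150). Ifna4, an interferon alpha, differed by -0.20 ± 0.10 (SE).

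None of the 4 receptor genes measured had an unadjusted p under 0.05. Ifnar1, a chain of the type I receptor, stood at 7.95 ± 0.06 after DJB and 8.01 ± 0.04 after sham (SD, n = 3 each). Ifngr1 and Ifngr2, the chains of the interferon gamma receptor, differed by 0.18 ± 0.10 and -0.13 ± 0.11 (SE), and Il10rb, a chain shared by the type III receptor, by -0.07 ± 0.12 (SE). Ifnar2, Ifnlr1 and Tyk2 were not analysed here. Among the signalling genes, the kinase gene Jak1 stood at 10.11, 9.97 and 9.97 after DJB, against 10.32, 10.19 and 10.28 after sham, with all DJB values below all sham values. Its difference was -0.25 ± 0.09 (SE, limma adjusted p = 0.284), and that of the kinase gene Jak2 was 0.16 ± 0.09 (SE). Socs1, the feedback inhibitor of JAK kinases, stood at 7.12, 7.08 and 7.18 after DJB, against 6.85, 6.90 and 6.61 after sham, a difference of 0.34 ± 0.11 (SE, limma adjusted p = 0.199). Stat3, which serves mainly the cytokines of the IL-6 and IL-10 families, differed by 0.28 ± 0.09 (SE, limma adjusted p = 0.225).

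Upstream of interferon, Irf2, which competes with IRF1 for the same sites, was lower on every DJB array. It stood at 7.71, 7.63 and 7.85 after DJB, against 8.16, 8.01 and 8.01 after sham, a difference of -0.33 ± 0.10 (SE, limma adjusted p = 0.193). Tlr3, the endosomal receptor of double-stranded RNA, stood at 8.61, 8.62 and 8.63 after DJB, against 8.36, 8.37 and 8.45 after sham, a difference of 0.22 ± 0.09 (SE, limma adjusted p = 0.297). In the list of 30 further interferon-stimulated genes measured, 24 were higher and 6 lower by their means, where 61.7% of all genes were higher, and 6 were higher at an unadjusted p under 0.05, where 9.82% of all genes were. Their lowest p were those of Shisa5, a protein of the endoplasmic reticulum, at 0.37 ± 0.11 (SE, limma adjusted p = 0.184), and Plscr1, a phospholipid scramblase, at 0.31 ± 0.11 (SE, limma adjusted p = 0.241). DJB 1 was the highest DJB array in 18 of the 30, near the 57.6% of all genes, and DJB 3 in 10, where it was in 23.2% of all genes. With DJB 3 highest were the T cell chemokine Cxcl9, at 5.68, 5.59 and 6.88 after DJB against 5.54, 5.77 and 5.61 after sham, and the peptide transporter Tap1, at 9.09, 8.36 and 9.42 after DJB against 8.38, 8.63 and 8.19 after sham. With DJB 1 highest was the nucleotide kinase gene Cmpk2, at 8.15, 7.41 and 7.28 after DJB against 7.18, 7.49 and 7.51 after sham. These last 3 genes were chosen after their values were seen and are not typical of the 30. Over the 30, DJB 3 minus the mean of the other DJB arrays ran from -0.66 to 1.25. Its median was 0.01, against -0.06 over all genes tested. For DJB 1 the same median was 0.14, against 0.11 over all genes tested.

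Markers of other cell types were also high on DJB 3 or on DJB 1. Among 7 markers of cytotoxic and NK cells, 5 were highest on DJB 3 among the DJB arrays, and their mean level was 6.17, 6.02 and 6.82 on the DJB arrays, against 5.99, 6.25 and 5.88 on the sham arrays. By their means 5 of the 7 were higher after DJB and 2 lower, with differences from -0.24 to 1.21. The largest was that of the granzyme gene Gzmb, which stood at 8.67, 8.51 and 10.33 after DJB, against 7.89, 8.45 and 7.54 after sham, while Klrd1, Klrb1a and Ncr1 lay under the median of all rows. The lowest difference was that of Klrb1a, an NK cell receptor gene, which stood at 4.34, 4.65 and 4.57 after DJB, against 4.84, 4.71 and 4.74 after sham, with all DJB values below all sham values. The 9 T cell markers averaged 7.63, 7.20 and 7.81 on the DJB arrays, against 7.27, 7.51 and 7.28 on the sham arrays, with 6 of them highest on DJB 3 and with Cd2 and Cd28 under the median of all rows. Their order over the DJB arrays, with DJB 3 highest and DJB 2 lowest, was that of the GBP and IRG GTPases. The means of the cytotoxic and NK cell, macrophage and monocyte, and dendritic cell markers had this order too. Over all genes tested, DJB 3 was the highest DJB array in 23.2%.

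The 8 markers of macrophages and monocytes averaged 8.30, 8.08 and 8.37 on the DJB arrays, against 8.04, 7.95 and 8.01 on the sham arrays. Among the DJB arrays, 7 of the 8 were highest on DJB 3, where 23.2% of all genes were. The 5 dendritic cell markers averaged 6.66, 6.52 and 6.87 on the DJB arrays, against 6.44, 6.55 and 6.43 on the sham arrays. The 5 B cell markers measured averaged 6.62, 5.10 and 5.80 on the DJB arrays, against 6.39, 6.73 and 5.75 on the sham arrays, and 4 of them lay under the median of all rows. All 5 were highest on DJB 1 among the DJB arrays, where 57.6% of all genes were, but sham 2 had the highest mean of the 6. The 5 plasma cell markers averaged 8.05, 7.70 and 7.99 on the DJB arrays, against 7.87, 8.04 and 7.82 on the sham arrays. The 5 endothelial markers averaged 7.31, 7.01 and 6.79 on the DJB arrays, against 7.07, 7.02 and 7.06 on the sham arrays. Of all 6 arrays, DJB 1 was the highest in all 5, where it was in 38.5% of all genes. The 8 epithelial genes averaged 12.13, 12.28 and 12.05 on the DJB arrays, against 11.72, 11.79 and 12.15 on the sham arrays. Of all these markers only Slc10a2, the bile acid transporter of the ileal enterocyte, passed the adjusted threshold, rising by 1.73 ± 0.22 (SE, limma adjusted p = 0.0106). The part of any of these cell types, or of the higher median of DJB 1, in the levels of the interferon-stimulated genes was not tested.

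**Figure D5:**
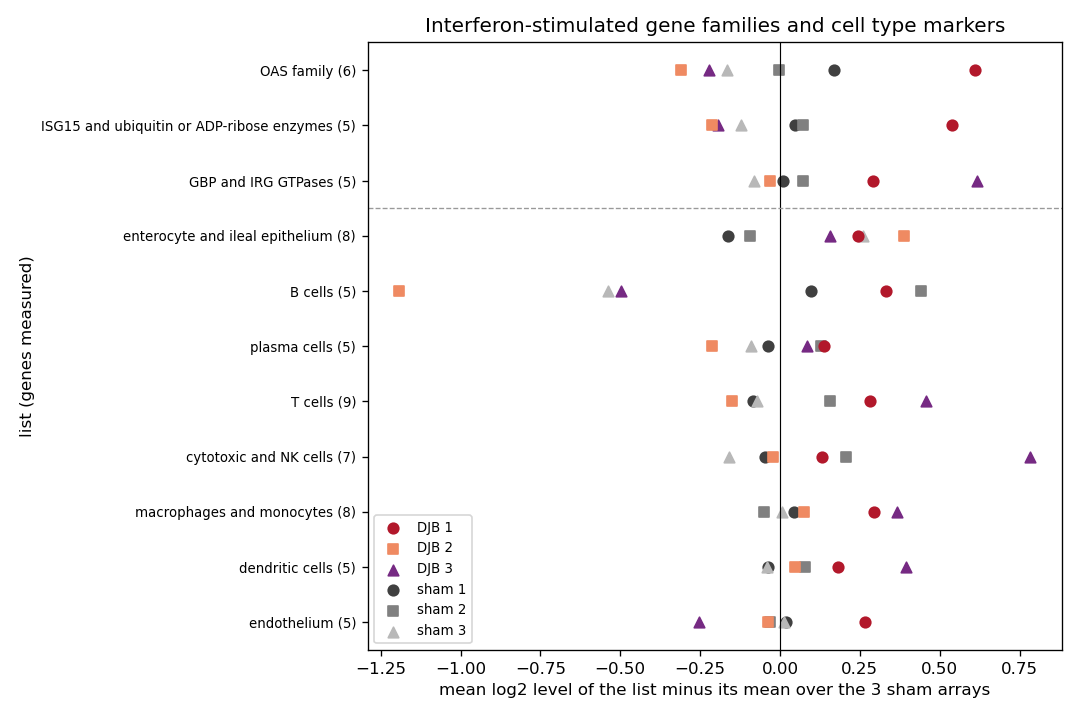
Mean log2 level of each list on each array, minus its mean over the 3 sham arrays, for 3 families of interferon-stimulated genes (above the dashed line) and 8 lists of cell type markers (below it). DJB 1 is highest for the OAS family and the enzymes of ISG15, ubiquitin and ADP-ribose, and DJB 3 is highest for the GBP and IRG GTPases, T cells, cytotoxic and NK cells, macrophages and dendritic cells.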

How the data were processed

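RNA of the ileum of 6 rats, 3 after DJB and 3 after sham surgery, was measured on 1 array each. The deposited log2 values were made by RMA, as the submitters' processing notes give it, without a version, and were used unchanged. Rows were named from the platform's annotation. Of 29214 rows, 15310 carried 1 symbol, 323 several and 13581 none; where a gene had several rows, the one with the highest mean was kept. Each gene was fitted by limma 3.58.1 under R 4.3.3 (lmFit, eBayes, no covariate, no filter) and tested two-sided, with Benjamini-Hochberg adjustment over 14506 genes and a threshold of 0.05; the script was tested on simulated data. No set test was run. Named were all 36 genes measured of the 40 listed and, from the pathway lists, genes past the threshold, the 2 of lowest p in each list, and fixed receptor and kinase genes. Cxcl9, Tap1 and Cmpk2 were named outside this rule, after their values were seen. The 40 genes, the lists and motifs were chosen with earlier results of these data known. The labels call the rats biological replicates. Their numbers did not pair the arrays: deviations from the group means correlated at 0.01, -0.12 and -0.15 for numbers 1 to 3. Figures used matplotlib 3.10.9 in Python 3.11.15. No source used here states the genome build of the array annotation.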

Additional observations from a re-analysis of the deposited data

How the results depend on the processing

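The count of interferon-stimulated genes past the adjusted threshold was 0 with the replicate block, repeated quantile normalisation, median centring, dim rows left out and gene means over rows, and 1 (Ifi27, 0.75) with an intensity trend; it was 0 to 1 when 1 array was left out, the 1 being Isg15 without DJB 1. All genes called numbered 112, against 50 with the replicate block, 225 with dim rows left out, 295 with an intensity trend, and 33 to 108 without 1 array. At an unadjusted p under 0.05, 5 of the 36 were higher and 1 lower, against 6 and 1 with the replicate block, and 3 and 9 without DJB 1, where 6.57% of all genes were higher and 5.98% lower. These counts were 9 and 0 without DJB 2, where 9.89% of all genes were higher and 3.47% lower. They were 6 and 0 without DJB 3, where 10.49% of all genes were higher and 3.62% lower. Groups did not overlap in 5 of the 36 (21.1% of all genes), against 6 to 14 without 1 array (29.2% to 32.5% of all genes), where fewer arrays make separation more common for every gene. The median difference was 0.01 to 0.20 and the median SD within DJB 0.16 to 0.32 without 1 array. Over all genes tested these were 0.01 to 0.07 and 0.09 to 0.13. The sign of Oas3 turned to -0.013 under median centring and to -0.0089 under repeated quantile normalisation. With 1 array left out, signs turned within these ranges: Adar (-0.073 to 0.041), Bst2 (-0.070 to 0.12), Dhx58 (-0.36 to 0.21), Ifi44 (-0.14 to 0.19), Ifit1 (-0.017 to 0.23), Igtp (-0.094 to 0.23), Il10rb (-0.12 to 0.014), Irf9 (-0.18 to 0.080), Oas1a (-0.61 to 0.25), Oas2 (-0.32 to 0.12), Oas3 (-0.11 to 0.13), Rsad2 (-0.22 to 0.24), Trim25 (-0.080 to 0.15), Usp18 (-0.42 to 0.49) and Zbp1 (-0.072 to 0.35). DJB 1 was the highest DJB array in 26 to 29 genes and DJB 3 in 7 or 8 across the normalisations. The causes were not tested. Leaving out dim rows removed 6 of the 36, namely Usp18, Oas1b, Oas2, Ifi44, Mx1 and Ifit3.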
